A study of Mus musculus with 6 samples.

Results

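Reg lectins are small secreted proteins of the C-type lectin fold that pancreatic acinar cells release with their digestive enzymes. The 6 mouse Reg genes of the chromosome 6 cluster, Reg1, Reg2, Reg3a, Reg3b, Reg3d and Reg3g, were taken by name. Added to these were the trefoil peptide gene Tff2 and the stress protein gene Nupr1. Together they are 8 of the 35527 genes with a summed read estimate. All 8 were among the 15805 genes with enough reads to be tested. The libraries came from the whole pancreas of C57BL/6 mice at day 1 after birth and were made from mRNA with a strand-specific kit. Wild-type mice (WT) gave 3 libraries and miR216a-/- mice, called KO, gave 3, each from its own donor animal. The titled question of the study was how miR-216a, a microRNA of the pancreas, bears on proliferation and on endocrine and exocrine cells. The labels name no treatment and do not give the sex, litter or sequencing batch of the mice.

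In a healthy adult pancreas Reg1 is an abundant acinar product, while Reg3 genes are low and are known to rise steeply in pancreatitis. Cytokines that signal through STAT3, such as interleukin-6, and bacterial contact in the gut are textbook inducers of Reg3b and Reg3g. Tff2 belongs to the trefoil family of mucus-associated repair peptides. Nupr1 encodes a small chromatin protein, first described in acinar cells during pancreatitis, that is induced by nutrient and endoplasmic reticulum stress through ATF4.

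The 6 Reg genes lie side by side on chromosome 6 within 98216 bases, and those were the only protein-coding genes annotated in that interval (GENCODE M21, GRCm38). In order they are Reg3b (chr6:78370657-78373466, plus strand), Reg3d (chr6:78375874-78378865, minus), Reg3a (chr6:78380709-78383827, plus), Reg2 (chr6:78395623-78408106, plus), Reg1 (chr6:78422711-78428667, plus) and Reg3g (chr6:78466269-78468872, minus). Tff2 lies at chr17:31141049-31144282 and Nupr1 at chr7:126623249-126630861, both on the minus strand. Exons of other annotated genes overlapped the exons of 0 of the 8 genes. The neighbour copies are alike but not identical: over the aligned coding bases Reg3b and Reg3g shared 76.4%, Reg3a and Reg3b 73.5%, and Reg1 and Reg2 82.5%.

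The stretches just before the RefSeq starts of the 4 Reg3 genes (build GRCm38.p6) are shown because 3 of these genes were below WT in every KO library and Reg3d, their neighbour, overlapped. RefSeq promoter entries matched 7 of the 8 genes, and Tff2 was a missing entry. Capitals mark matches to a searched motif that lie whole within the run. The Reg3b run lies inside the annotated gene, in an intron of Reg3b-204, and stops where the first exon of Reg3b-201 begins, short of the RefSeq start, so a TATAAA match at its end is cut and left in lower case. The runs are chr6:78370745-78370860 (plus), chr6:78380569-78380708 (plus), chr6:78468875-78469014 (minus) and chr6:78378866-78379005 (minus).
Reg3b: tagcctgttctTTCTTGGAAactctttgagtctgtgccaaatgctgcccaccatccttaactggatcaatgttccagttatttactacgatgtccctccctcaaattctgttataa
Reg3a: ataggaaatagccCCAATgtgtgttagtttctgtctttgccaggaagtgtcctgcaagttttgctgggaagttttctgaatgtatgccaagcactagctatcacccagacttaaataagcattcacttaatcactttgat
Reg3g: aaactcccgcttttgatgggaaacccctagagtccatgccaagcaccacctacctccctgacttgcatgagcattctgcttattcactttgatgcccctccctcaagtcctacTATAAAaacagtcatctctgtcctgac
Reg3d: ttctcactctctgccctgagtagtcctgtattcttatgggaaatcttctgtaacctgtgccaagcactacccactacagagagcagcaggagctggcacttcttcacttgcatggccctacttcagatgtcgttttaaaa

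Over the last 140 bases before the RefSeq start, Reg3b and Reg3g shared 71.0% of 138 aligned bases, and Reg3a and Reg3g shared 71.7% of 92. Reg3a and Reg3b shared 53.8% of 130, less than Reg3d shared with Reg3a (65.2% of 112), Reg3g (63.0% of 119) or Reg3b (60.7% of 117). Reg1 and Reg2 shared 59.3% of 135. The STAT motif TTCNNNGAA, a palindrome, stood 129 bases before the start in Reg3b, 238 in Reg3d and 128 in Nupr1, and 7.02% of all 32851 RefSeq promoter windows of 250 bases held it. Its stricter form TTCCNGGAA was in 0 of the 7 windows and in 0.91% of all windows. The ATF4 composite motif TGATGNAAN, present in 3.44% of windows, was in that of Nupr1, 111 bases before the start on the opposite strand. TATAAA was found in Reg3b, Reg3g, Reg1 and Reg2, 27 to 30 bases before the start, again in Reg3g 161 bases before it on the opposite strand, and in 12.37% of all windows. CCAAT was found in Reg3a and in 33.85% of windows. Both strands were searched for every motif, and a match describes letters only.

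The microRNA that KO mice lack is also shown, with the seed, bases 2 to 8, in capitals (RefSeq, GRCm38.p6, chr11:28757018-28757039 for the 5p arm and chr11:28757058-28757079 for the 3p arm, plus strand).
mmu-miR-216a-5p: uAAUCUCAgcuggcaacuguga
mmu-miR-216a-3p: cACAGUGGucucugggauuaug

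A seed site of either arm was in the 3′ UTR of 0 of the 8 genes. Sites were TGAGATT for 5p and CCACTGT for 3p, alone or followed by A (8mer), and the 7mer-A1 form. That form leaves out the first base of the match and ends with a flanking A. Among 21042 genes with an annotated 3′ UTR, taken at its longest, 15.19% held a site for the 5p arm and 22.64% for the 3p arm. The 8 genes have short 3′ UTRs, with a median of 200 bases against 960 for all genes. The quantified set held no transcript named Mir216a, so the genotypes rest on the labels alone.

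Depth ran from 20565387 to 23028718 estimated reads per library. Digestive enzyme genes, the acinar markers, summed to 294450 to 415528 CPM (reads scaled to library size) in WT and 350696 to 432779 in KO, with all 29 measured. WT 1 stood apart in liver genes: 12 liver markers, each with reads, summed to 689 CPM there, to 273 and 286 in WT 2 and WT 3, and to 235 to 316 in KO. Erythroid markers summed to 5949 CPM in WT 1 and 4806 in KO 2 and to 1707 to 2840 in the other libraries. The Y-linked gene Ddx3y was at 0.141 CPM in KO 1 and at 61.8 to 102 CPM elsewhere. Among the KO libraries, KO 1 was the highest for Reg3a, Reg3g, Reg3d and Tff2 and lay between the others for Reg3b, Reg1 and Reg2, and the part of sex in these levels was not tested.

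Levels of different genes were compared per transcript length, in TPM (reads scaled to length and library size), over all 6 libraries. Reg1 led with a median of 7080 TPM (range 5616 to 12044). Tff2 followed at 584 TPM (401 to 715) and Nupr1 at 536 TPM (296.0 to 829). Reg3b ran from 59.8 to 823 TPM around a median of 113, and Reg3d stood at 53.5 TPM (36.2 to 79.0). Reg2 was at 22.1 TPM (17.1 to 45.5), Reg3g at 5.24 TPM (1.88 to 23.8) and Reg3a at 3.02 TPM (1.39 to 14.7). Of the neighbours in this order, only Reg1 and Tff2 had ranges that did not overlap. In newborn pancreas Reg1 was thus the most abundant of the 8 messages per length, and Reg3g and Reg3a were the scarcest.

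The question of the comparison was which of these genes differ between KO and WT pancreas. Reg3b, Reg3a, Reg3g and Tff2 were lower in every KO library than in every WT library, Nupr1 was higher in every KO library, and Reg1, Reg2 and Reg3d overlapped between genotypes. By edgeR's quasi-likelihood test with Benjamini-Hochberg adjustment over all genes, 0 of the 8 genes and 0 of the 15805 tested genes (0.0%) passed an adjusted p of 0.05. At an unadjusted p under 0.05, 4 of the 8 genes were lower in KO, where 7.0% of all tested genes were (1107 genes), and 1 was higher, where 5.62% were (889 genes). Without overlap between groups, 4 of the 8 were lower against 10.3% of all tested genes, and 1 was higher against 9.07%. The median log2 fold change of the 8 genes was -0.64, and that of all tested genes 0.01. In bulk tissue, fewer cells of a type and less RNA per cell cannot be told apart.

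The number of calls differed between tests. DESeq2 called 292 genes lower (1.85%) and 127 higher (0.804%) in KO, among them Reg3a (adjusted p = 0.00055), Reg3g (0.00268) and Reg3b (0.0114) as lower and Nupr1 (0.0339) as higher, while Tff2 stood at 0.0576. Over 17 alternatives of processing, the adjusted p ran from 0.00055 to 0.669 for Reg3a, from 0.00268 to 0.669 for Reg3g, from 0.00496 to 0.669 for Reg3b and from 0.0339 to 0.669 for Nupr1. limma-voom called 1 gene lower and 1 higher, with 0 of the 8 among them. In edgeR without KO 1, 275 genes were called lower and 87 higher, again with 0 of the 8. An exact permutation test of 3 against 3 libraries cannot give a p below 0.1.

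**Figure D1:**
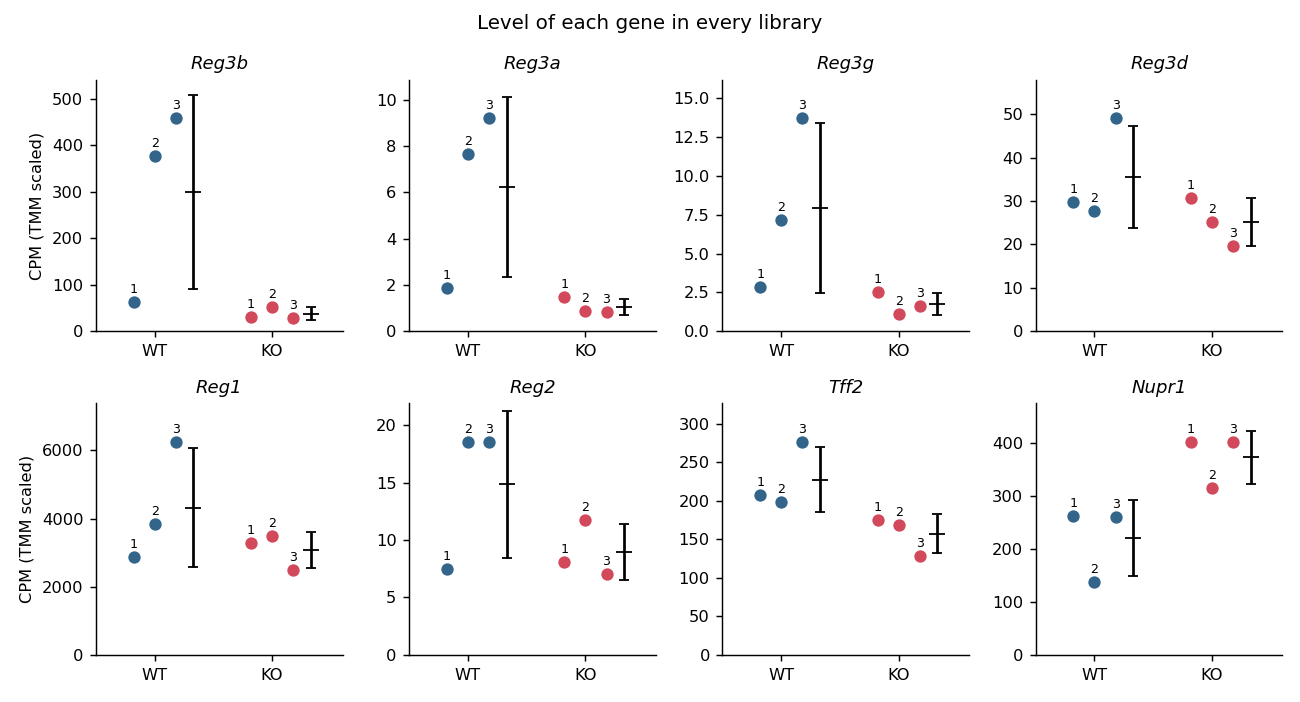
Level of each of the 8 genes in every library, in CPM scaled by TMM on a linear axis from 0, with WT in blue, KO in red, replicate numbers above the points and bars for the mean ± SD of 3 libraries. WT 1 lies close to the KO libraries for Reg3b, Reg3a and Reg3g, and all 3 KO libraries lie above all 3 WT libraries for Nupr1.

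Reg3b encodes the lectin known as pancreatitis-associated protein, which is induced in injured acinar tissue and binds bacteria in the gut. Its level was 63.8, 376 and 459 CPM in WT 1, 2 and 3 and 31.5, 53.1 and 27.8 CPM in KO 1, 2 and 3. WT 2 and WT 3 were far above the other 4 libraries, and WT 1 was just above the highest KO library. The means were 299.6 ± 208 CPM in WT and 37.4 ± 13.7 CPM in KO (SD, n = 3). In edgeR's fit this was a log2 fold change of -3.00 ± 0.65 (SE; unadjusted p = 0.00163, adjusted p = 0.205). WT 1 alone exceeded the KO mean by 0.77 on the log2 scale, while the mean of WT 2 and WT 3 exceeded WT 1 by 2.71. The difference within WT was therefore larger than that between WT 1 and KO.

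The reads behind Reg3b were many, between 649 and 9661 per library, so counting error is small beside these gaps. The highest WT library was 7.19 times the lowest, a spread above that of 99.69% of 15720 genes with reads in every library, whose median ratio within WT was 1.22. Within KO the ratio was 1.91, against a median of 1.30. The transcript Reg3b-201 took 98.91% of the gene's reads. Without WT 1 and KO 2, the libraries rich in erythroid transcripts, Reg3b had a log2 fold change of -3.82 in edgeR. Its adjusted p in that fit was 0.00496, and it was the 1 gene called lower of 15905 tested (0.00629%). WT 1 was also the lowest WT library for Reg3b (63.8 CPM) and KO 2 the highest KO library (53.1 CPM). Leaving them out therefore widens the gap by construction and gives no separate support.

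Reg3a, another secreted lectin of the family, was at 1.85, 7.66 and 9.21 CPM in WT and at 1.46, 0.864 and 0.813 CPM in KO. The pattern over libraries was that of Reg3b at a far lower level, with WT 2 and WT 3 high and WT 1 beside the KO libraries. The means were 6.24 ± 3.88 and 1.05 ± 0.360 CPM (SD, n = 3), with a log2 fold change of -2.57 ± 0.58 (SE; edgeR unadjusted p = 0.00206, adjusted p = 0.205). WT 1 held 39 Reg3a reads (95% exact Poisson interval 27.7 to 53.3) and KO 1 held 31 (21.1 to 44.0). At this depth those libraries could not be separated, so the lack of overlap between the groups rests on a gap within counting error. Intervals here cover counting error only.

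Reg3g encodes a lectin known to kill Gram-positive bacteria at the intestinal surface. It stood at 2.84, 7.17 and 13.7 CPM in WT and at 2.54, 1.12 and 1.63 CPM in KO. WT 3 was highest, WT 2 next, and WT 1 and KO 1 lay together, with 60 reads (45.8 to 77.2) and 54 reads (40.6 to 70.5). The means were 7.91 ± 5.48 and 1.76 ± 0.723 CPM (SD, n = 3), and the log2 fold change was -2.16 ± 0.56 (SE; edgeR unadjusted p = 0.00464, adjusted p = 0.227). Reg3g depended most on WT 3, without which its log2 fold change was -1.50. Reg3b and Reg3g share 5 runs of 31 bases, 0.67% of those of Reg3g.

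Reg3d, known for its likeness to the islet neogenesis protein INGAP, did not follow its neighbours. Its levels were 29.7, 27.8 and 49.1 CPM in WT and 30.7, 25.2 and 19.7 CPM in KO. Only WT 3 stood above the rest, and KO 1 exceeded both WT 1 and WT 2. The log2 fold change was -0.50 ± 0.24 (SE; edgeR unadjusted p = 0.0767, adjusted p = 0.461). Without WT 3 it was -0.18. Its coding sequence shared 64.8 to 65.9% of bases with those of the other Reg3 genes, less than they shared with each other (72.8 to 76.4%).

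Reg1 encodes the lectin also called lithostathine or pancreatic stone protein. It was at 2860, 3853 and 6251 CPM in WT and 3271, 3479 and 2493 CPM in KO, from 58289 to 131695 reads per library. WT 3 was highest and KO 3 lowest, and WT 1 lay below KO 1 and KO 2. The means were 4321 ± 1743 and 3081 ± 520 CPM (SD, n = 3), with a log2 fold change of -0.49 ± 0.28 (SE; edgeR unadjusted p = 0.118, adjusted p = 0.522). Without WT 3 the value was -0.12, so most of the difference rests on that library.

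Reg2, the closest relative of Reg1, was at 7.49, 18.6 and 18.6 CPM in WT and 8.06, 11.7 and 7.06 CPM in KO. WT 2 and WT 3 were level and highest, and WT 1 lay below KO 1 and KO 2, as for Reg1. The log2 fold change was -0.74 ± 0.35 (SE; edgeR unadjusted p = 0.0683, adjusted p = 0.444). The gene sums 2 transcripts that did not behave alike. Reg2-201 was at 2.11, 12.2 and 10.6 CPM in WT and 2.04, 4.60 and 0.817 CPM in KO, while Reg2-202 was at 5.37, 6.35 and 7.98 CPM in WT and 6.01, 7.14 and 6.24 CPM in KO.

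The contrast of the transcripts bears on what the Reg2 sum measures. Reg2-201 was high in WT 2 and WT 3 and low in WT 1, as Reg3b was, while Reg2-202 was nearly flat (6.57 ± 1.32 against 6.46 ± 0.597 CPM). Few reads lay behind Reg2-201: 44.6, 304.6 and 222.8 estimated reads in WT and 43.4, 90.5 and 19.1 in KO. The spans of the transcripts overlap and Salmon estimated how reads divide between them, so their values are not independent. Of the 665 runs of 31 bases in Reg2-202, 70 (10.53%) also occur in transcripts of other genes, such as 4930544I03Rik and Gm48309, and 0 of the 668 in Reg2-201 do. Whether reads of those genes were assigned to Reg2-202 was not tested. Reads of the most abundant transcript alone, Reg2-202, gave Reg2 a log2 fold change of -0.002.

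**Figure D2:**
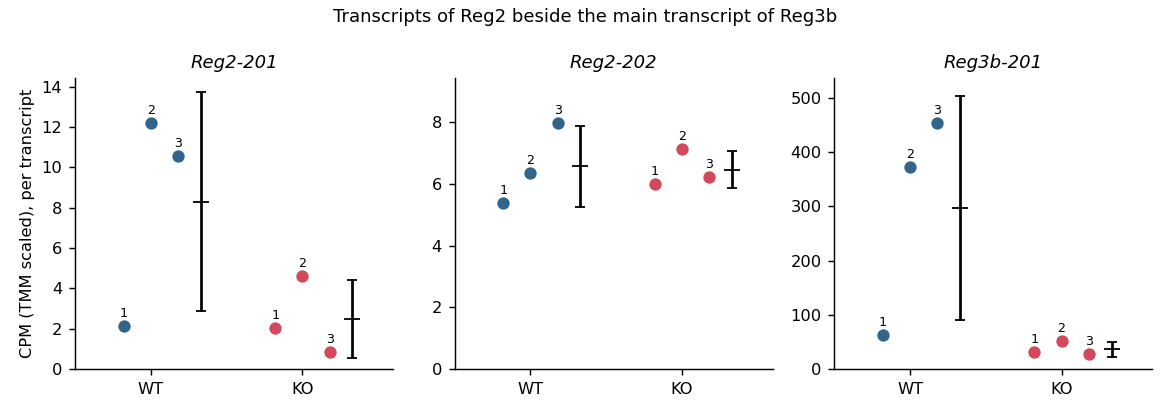
Level of the transcripts Reg2-201 and Reg2-202 and of Reg3b-201 in every library, in CPM scaled by TMM on linear axes from 0 that differ between panels, with the mean ± SD of 3 libraries per genotype. WT 2 and WT 3 are high for Reg2-201 (12.2 and 10.6 CPM) and for Reg3b-201 (372 and 455 CPM), and Reg2-202 lies between 5.37 and 7.98 CPM in all 6 libraries.

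Along the cluster, the genes with the widest gaps were not adjacent. Reg3b and Reg3a enclose Reg3d, and Reg3g lies at the far end, beyond Reg2 and Reg1. The nearest tested protein-coding genes outside were not set apart either: Ctnna2, before the cluster, had a log2 fold change of -0.47 (edgeR unadjusted p = 0.173), and Gm20594, after it, 0.16 (unadjusted p = 0.328). Leaving out WT 1 left 6 of the 8 genes with every KO library below every remaining WT library, Reg1 and Reg2 being added, where 16.1% of all tested genes were. WT 1 was the lowest WT library for Reg1 and Reg2. Leaving it out therefore widens their gaps by construction and gives no separate support.

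**Figure D3:**
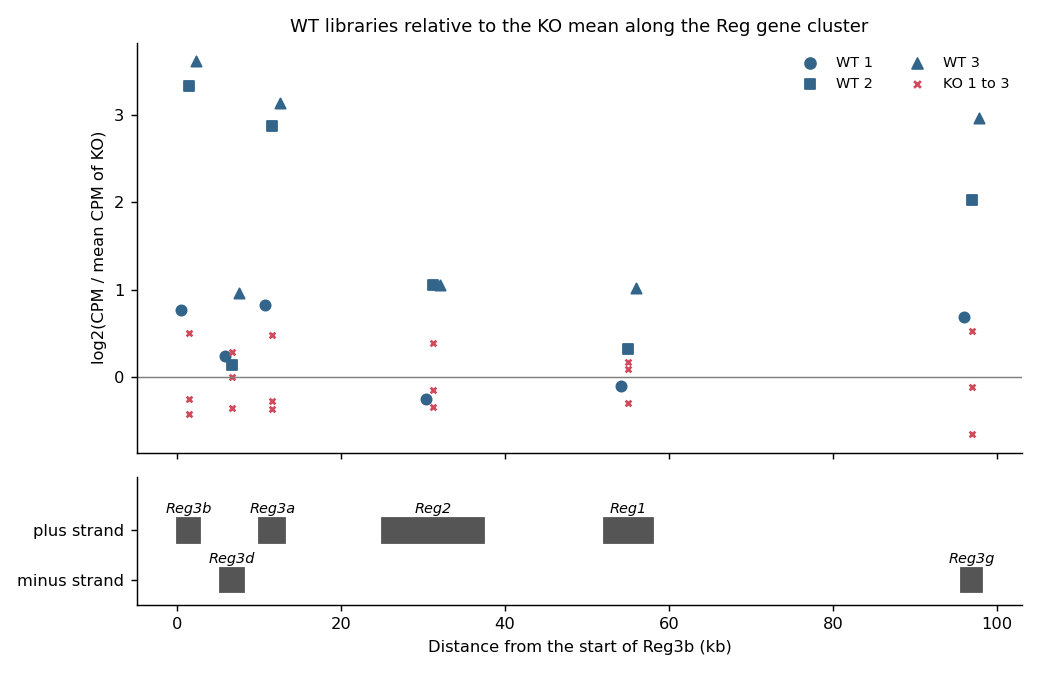
Upper panel, log2 ratio of each library's CPM to the KO mean for the 6 Reg genes, placed at their position in kb from the start of Reg3b; lower panel, the genes on each strand, to scale. WT 2 and WT 3 lie more than 2 log2 units above the KO mean at Reg3b, Reg3a and Reg3g and less than 1.1 at Reg3d, Reg2 and Reg1, and WT 1 lies below 1 at all 6.

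Tff2, the spasmolytic trefoil peptide, is a product of gastric mucous neck cells that is also found in pancreas. Its level was 207, 199 and 277 CPM in WT and 175, 168 and 129 CPM in KO. Each KO library was below each WT library, and the WT spread was modest, with a ratio of 1.39 between highest and lowest. The means were 228 ± 42.7 and 157 ± 25.1 CPM (SD, n = 3), and the log2 fold change was -0.53 ± 0.16 (SE; edgeR unadjusted p = 0.0112, adjusted p = 0.258). It ranged from -0.62 to -0.36 with each library left out in turn. WT 1 was not low for Tff2, unlike for Reg3b, Reg3a and Reg3g.

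Stomach and intestine RNA could carry Tff2 and Reg3 transcripts, so markers of those organs were measured. Of 27, 3 had no read (Gkn1, Gkn2 and Sis), and Muc5ac and Tff1 had 1 read each in all libraries together. Their sum was 58.7 to 110.4 CPM in WT, highest in WT 1, and 59.3 to 70.2 CPM in KO, and the pancreatic gene Pdx1 is among them. Of the 10 that could be tested, 1 was higher and 1 lower at an unadjusted p under 0.05. These were the lectin gene Lgals4, at 8.55 ± 0.737 CPM in WT and 19.3 ± 3.90 in KO, and Agr2, a protein disulfide isomerase of mucous cells, at 6.03 ± 0.701 and 1.48 ± 0.592 CPM (SD, n = 3).

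Nupr1 was the 1 member with more RNA in KO. Its level was 262, 137 and 261 CPM in WT and 402, 316 and 402 CPM in KO. The lowest KO library, KO 2, was above the highest WT library, WT 1, and WT 2 was the lowest of all. The means were 220.1 ± 71.7 and 373 ± 49.8 CPM (SD, n = 3), a log2 fold change of 0.76 ± 0.24 (SE; edgeR unadjusted p = 0.0126, adjusted p = 0.266), or 1.70-fold. It ranged from 0.51 without WT 2 to 0.91 without WT 3. The transcript Nupr1-201 took 81.78% of the reads, and Nupr1-205, annotated to nonsense-mediated decay, took 11.27%.

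**Figure D4:**
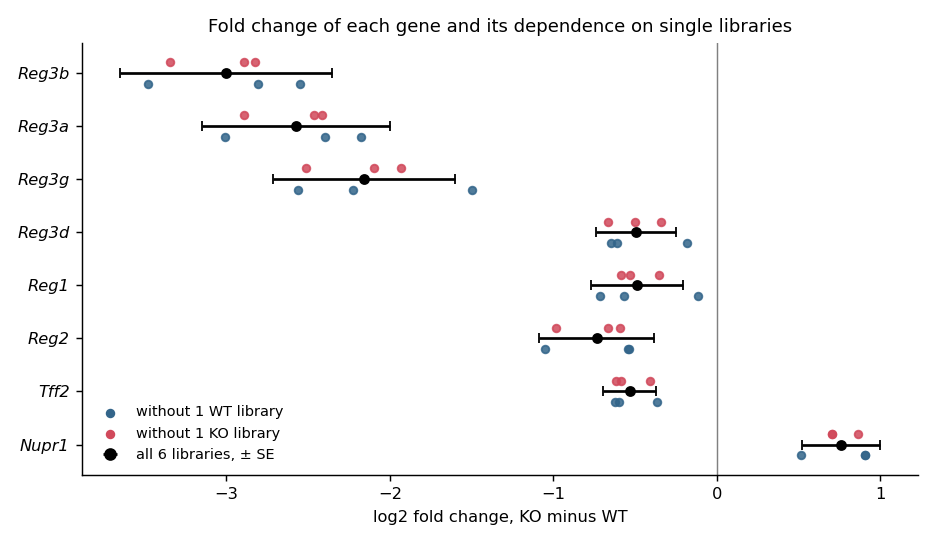
Log2 fold change of KO against WT for the 8 genes from edgeR, with the SE as bar (black, all 6 libraries) and the value with each WT (blue) or KO (red) library left out. All points keep the sign of the black point, and Reg1 and Reg3d come closest to 0, at -0.12 and -0.18, without WT 3.

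Genes around Nupr1 were read from a list of 20 genes of the ATF4 stress response. At an unadjusted p under 0.05, 5 were higher and 1 lower in KO, where 5.62% and 7.0% of all tested genes were. In the fit 16 of the 20 were above 0, as were 8085 of all 15805 tested genes, and the list's median log2 fold change was 0.17 (0.15 with upper-quartile scaling). Eif2ak3, which encodes the endoplasmic reticulum stress kinase PERK, stood at 73.5, 49.9 and 63.1 CPM in WT and 91.3, 92.7 and 91.2 CPM in KO, without overlap (unadjusted p = 0.00331, adjusted p = 0.215, edgeR). Chac1, a glutathione-degrading enzyme induced by ATF4, was at 2.70 ± 1.16 CPM in WT and 6.07 ± 2.19 in KO (SD, n = 3), and Ddit4, an inhibitor of mTORC1, at 32.1 ± 6.10 and 45.0 ± 7.14 CPM. Chac1 and Ddit4 overlapped between groups, with WT 1 above KO 1 for each. The 1 lower gene, Psat1 of serine synthesis, was at 62.1, 70.02 and 83.8 CPM in WT and 41.9, 64.1 and 36.8 CPM in KO (unadjusted p = 0.0216, adjusted p = 0.302, edgeR). Atf4 itself was at 118 ± 9.86 and 117 ± 16.9 CPM. RNA levels do not measure ATF4 translation.

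The cytokine and STAT3 genes upstream of Reg3 induction were read from a list of 30, of which 26 were tested. At an unadjusted p under 0.05, 3 were higher and 2 lower in KO, where 5.62% and 7.0% of all tested genes were. The median log2 fold change of the list was 0.04. Ligands were scarce: Il6 had 25 reads in all 6 libraries together, Il22 had 1 and Il17a had 0. Among receptors, Osmr, the oncostatin M receptor subunit, was at 11.4 ± 1.53 CPM in WT and 19.6 ± 2.98 in KO (SD, n = 3), and Il6ra, the interleukin-6 receptor, at 23.3 ± 1.58 and 35.2 ± 8.41 CPM, neither overlapping between groups. Stat3 was at 78.5, 89.3 and 77.7 CPM in WT and 82.8, 81.4 and 120.5 CPM in KO. Its feedback inhibitor gene Socs3 was at 13.8, 12.7 and 12.1 CPM in WT and 13.6, 11.7 and 18.8 CPM in KO. Both overlapped between groups, were highest in KO 3, and did not set WT 2 and WT 3 apart from WT 1 as Reg3b did. RNA levels do not measure STAT3 activity, and its part in the Reg3 levels was not tested.

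Other genes of acinar injury did not share one direction. Of 26 listed, 25 were tested, with 2 higher and 2 lower in KO at an unadjusted p under 0.05. Of all tested genes, 5.62% were higher and 7.0% lower at that p. The list's median log2 fold change was 0.02, or -0.01 with upper-quartile scaling. Spink1, the trypsin inhibitor of the acinar granule, stood at 1127, 1139 and 1348 CPM in WT and 903, 1051 and 720.2 CPM in KO, without overlap (unadjusted p = 0.0234, adjusted p = 0.311, edgeR). Mt1, a metallothionein gene, was at 122 ± 89.5 CPM in WT and 341 ± 149 in KO (SD, n = 3), and Anxa2, a membrane-binding annexin, at 187 ± 13.3 and 150.1 ± 22.3 CPM. Acute phase genes gave 0 of 12 tested at that p in either direction.

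**Figure D5:**
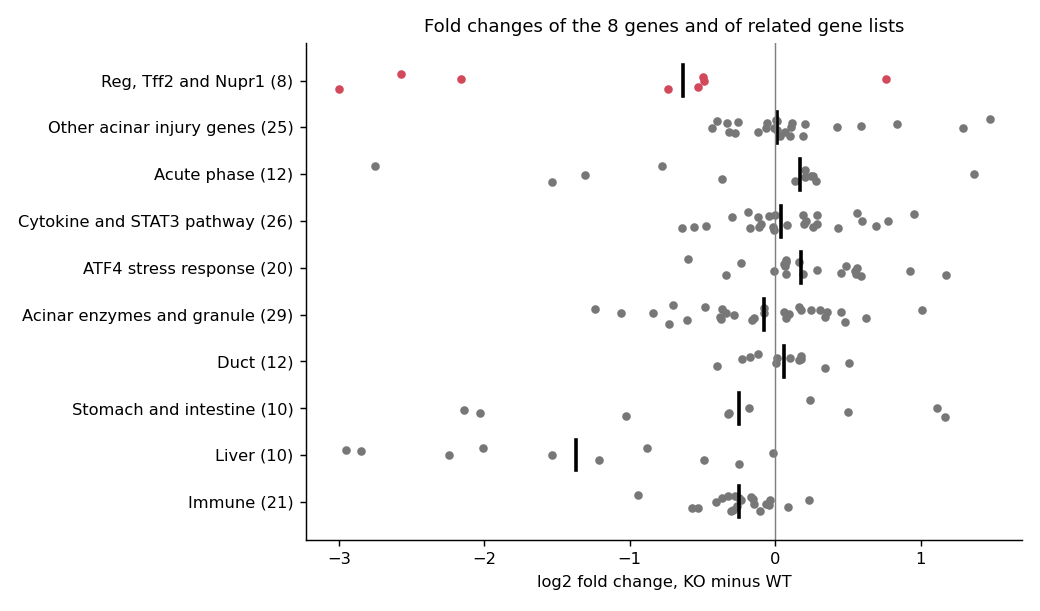
Log2 fold change of KO against WT of every tested gene of 10 lists, with the number of tested genes in brackets and the median as a vertical bar. The 8 genes (red) have a median of -0.64, other acinar injury genes 0.02, ATF4 stress genes 0.17 and liver genes -1.37, with Alb high in WT 1 alone.

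Other genes tied to the Reg and trefoil proteins were few. Of 10 listed, 4 were tested and 0 passed an unadjusted p of 0.05. Reg4, the Reg gene outside the cluster, had 10 reads in all. Extl3, a glycosyltransferase gene whose product is a reported Reg receptor, was even over libraries, at 97.4 to 128 CPM in WT and 98.4 to 125 CPM in KO. Clec3b, the lectin gene tetranectin, was at 72.4 ± 9.79 CPM in WT and 83.5 ± 2.20 in KO (SD, n = 3).

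Markers of other cells were set beside the low Reg3 values of WT 1. Liver markers other than Ttr and Apoc3 were highest in that library, with Alb, serum albumin, at 219 CPM in WT 1 and 6.41 to 15.1 CPM in the other 5. Immune markers, 21 of 23 tested, summed to 942, 646 and 558 CPM in WT and to 547, 900.3 and 457 CPM in KO. S100a8, a neutrophil gene, was at 92.6 CPM in WT 1, 95.4 in KO 2 and 7.10 to 29.1 in the others. The part of liver, blood or neutrophil RNA in the Reg3 levels was not tested. KO 2, where erythroid and neutrophil transcripts were also high, was the highest KO library for Reg3b (53.1 CPM) but the lowest of all 6 for Reg3g (1.12 CPM), and stood at 0.864 CPM for Reg3a.

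The digestive enzyme sum was 361495, 294450 and 415528 CPM in WT 1, 2 and 3 and 350696, 432779 and 359394 CPM in KO 1, 2 and 3. It was lowest in WT 2 and highest in KO 2, and the part of acinar share in the Reg levels was not tested. Of the 29 enzyme genes, 6 were lower and 1 higher in KO at an unadjusted p under 0.05, where 7.0% and 5.62% of all tested genes were. The lower ones were led by the trypsinogen genes Gm5771 (5848 ± 613 against 2478 ± 51.0 CPM) and Prss1 (5645 ± 579 against 3150 ± 263 CPM, SD, n = 3). These have close copies among which reads may be split. Duct markers summed to 1184 to 1421 CPM in WT and 1260 to 1296 in KO, with 2 of 12 higher at that p. Islet markers summed to 7725 to 9915 CPM in WT and 6966 to 7670 CPM in KO, without overlap, with 5 of 17 lower at that p. In the fit 8 of the 17 were above 0 and 9 below, with a median log2 fold change of -0.001. The most abundant of them, Ins2 and Ins1, weigh most in the sum. Ins2 was at 3027 ± 301 CPM in WT and 2206 ± 87.2 in KO, and Ins1 at 2245 ± 253 and 1700 ± 169 (SD, n = 3).

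The profile of Reg3b over the 6 libraries was compared with those of 14542 genes of at least 1 CPM on average, as the root mean square difference of centred log2 CPM. The nearest were Reg3a (0.494) and Reg3g (0.758), from the same cluster but not adjacent to Reg3b. Among the nearest genes after these were Erfe, the erythroferrone gene (0.859), Trpv6, an epithelial calcium channel (0.892), Agr2 (0.929) and Cenpm, a centromere protein (0.962). Trpv6 was at 10.8, 17.6 and 17.8 CPM in WT and 2.45, 6.10 and 5.69 CPM in KO, so WT 1 was less low than for Reg3b. Nearest to Nupr1 were Olfr656 (0.176), St8sia6 (0.195) and Arhgef26 (0.202), while Reg3b was among the farthest from it (2.07). These distances describe 6 libraries and carry no test.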

How the data were processed

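RNA of 6 whole pancreas libraries, 3 WT and 3 KO, was analysed. Groups follow the genotype label, and replicate numbers follow accession order only. Per the labels' protocols, a Bioanalyzer served for quality control and the libraries are strand-specific. Per the submitters' processing notes, bcl2fastq, Salmon 0.13.1, DESeq2 1.24.0 and the build mm10 were used, with the transcript set not given in the sources used here. The authors deposited per library Salmon's estimated counts for 116248 transcripts, not normalized, and per the file headers TPM values beside them. A series-wide table of 17324 genes that the authors deposited holds a scaled signal: at most 0.7908% of its values were whole, within 1e-06.

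By versioned identifier 115995 transcripts matched GENCODE M21, and the others, at most 0.0458% of the reads, were left out. Estimated counts were summed per gene and rounded, and deposited TPM values were summed per gene. WT libraries held 20889909, 22922738 and 22491960 reads in replicate order, and KO libraries held 20565387, 21401039 and 23028718. Genotypes were compared over all 6 libraries by the quasi-likelihood test of edgeR 4.0.16 (R 4.3.3), after TMM scaling and filterByExpr, with Benjamini-Hochberg adjustment over 15805 genes and a threshold of 0.05. The biological coefficient of variation was 18.4%. Scripts were tested on simulated data. Tables, alignments and figures used Python 3.11.15, pandas 2.3.3, Biopython 1.88 and matplotlib 3.10.9.

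Processing was varied by size factors from DESeq2, upper-quartile scaling, enzyme genes left out of scaling, no filter, a minimum of 1 CPM in 3 libraries, the tests of DESeq2 1.42.0 and limma-voom (limma 3.58.1), an effective length offset, leaving out each library or WT 1 and KO 2, the most abundant transcript only and, for overlap, TPM and the scaled table. Limma on log2(value + 1) of the scaled table, overlap without WT 1 or without WT 1 and KO 2, and Reg2-201 alone were chosen after seeing the data.

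The 8 genes and all gene lists were chosen with earlier results of these data known. Named besides them were up to 3 genes per list with the smallest p, the 5 genes nearest to Reg3b and the 3 nearest to Nupr1, and markers at or near 0. Some genes that this rule takes are left out of the text. Atf4, Psat1, Ttr, Apoc3, Apoa1, Fabp1, Stat3, Socs3, Extl3, S100a8, Ddx3y, Reg4 and the genes beside the cluster were named after their values were seen. Lists named in figures or text were the acinar enzyme, acinar transcription factor, islet, duct, stomach and intestine, liver, immune, erythroid and mesenchyme markers and the 5 pathway lists.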

Additional observations from a re-analysis of the deposited data

How the results depend on the processing

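No paired analysis was possible because replicate numbers follow accession order only and the labels pair no mice. Under 17 alternatives per gene, 0 of the 8 log2 fold changes changed sign. Their ranges were -3.82 to -2.55 for Reg3b, -3.01 to -2.18 for Reg3a, -2.56 to -1.50 for Reg3g, -0.66 to -0.18 for Reg3d, -0.82 to -0.12 for Reg1, -1.30 to -0.002 for Reg2, -0.65 to -0.36 for Tff2 and 0.51 to 1.01 for Nupr1.

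The count of calls, 0 in edgeR, moved with the test. DESeq2 called 127 genes higher and 292 lower, with 1 member higher and 3 lower. limma-voom called 1 higher and 1 lower. Without WT 1 and KO 2, edgeR called 1 higher and 1 lower, and the lower one was Reg3b. WT 1 was the lowest WT and KO 2 the highest KO library for Reg3b. With no filter 0 were called higher and 1 lower, and with the most abundant transcript of each gene 0 and 1. Leaving out each library in turn gave 0 to 87 genes higher and 0 to 275 lower, both highest without KO 1, with 0 members called. The cause was not tested. With every other setting, the scaled table with limma included, 0 genes were called.

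Of the 8 genes, 4 were lower and 1 higher without overlap on the CPM scale, the TPM scale and the scaled table, and 6 were lower without WT 1, alone or with KO 2. The genes added were Reg1 and Reg2, for which WT 1 was the lowest WT library. Under upper-quartile scaling the counts at an unadjusted p under 0.05 were the same for all 14 other lists, while for all genes they were 733 higher and 1236 lower. The median of all genes moved from 0.01 to -0.02, that of acinar transcription factors from 0.01 to -0.01. Mesenchyme markers had 2 of 10 genes higher and 2 lower, acinar transcription factors 0 of 7 and erythroid markers 0 of 9. Of all tested genes, 5.62% were higher and 7.0% lower at that p with TMM scaling. Depth limits Reg3a and Reg3g most, with 17 to 54 reads per KO library.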
